A study of Mus musculus with 7 samples.

Results

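The keratin genes of the mouse were followed through a conversion of fibroblasts to neural stem cells. They were taken as all protein-coding genes whose symbol is Krt followed by a number, with the keratin-associated protein genes (Krtap) left out. This gave 53 of 21474 protein-coding genes, and of 29686 genes in all. By their protein 28 are type I and 25 are type II keratins. Of these genes 27 lie on chromosome 11 and 26 on chromosome 15, since Krt18, a type I keratin, sits beside Krt8 in the type II cluster.

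Poly(A) RNA-seq was available for 7 cell populations with 1 library each, so no value has a replicate error and no difference has a test. Mouse embryonic fibroblasts (MEF) came from strain A12, which is Mbd3 flox/-, and so did the induced pluripotent stem cells (iPSC). The day 6 cells and both lines of OSKM neural stem cells (NSC) came from a B6/129 cross carrying Rosa26-TdTomato and Col1a-OSKM. In that cross doxycycline turns on Oct4, Sox2, Klf4 and Myc, and a Cre driven by Nanog and released by 4OHT marks cells with tdTomato for good. The day 6 cells received doxycycline and 4OHT from day 1 to day 6 and were sorted as tdTomato positive, without feeders. The 2 OSKM NSC populations, 1 positive and 1 negative for the Nanog-Tomato mark, were subcloned mechanically and grew without feeders. Brain NSC were primary cells of BDF2 embryos, for which the labels give both E12.5 and E13.5. The embryonic stem cells (ESC) were the line v6.5 grown on MEF feeders, and the label of the iPSC puts a question mark on feeders. Strain, line and feeders therefore change together with the population and cannot be told apart from it. In such bulk libraries fewer cells of a type and less RNA per cell cannot be told apart.

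Keratins form the intermediate filaments of epithelial cells. A filament is built from heterodimers of a type I and a type II chain, and each epithelium uses its own combination. Krt8 with Krt18 and Krt19 are the keratins of simple, single-layered epithelia and of the early embryo. Krt5 with Krt14 mark the basal layer of stratified epithelia, Krt6a, Krt6b, Krt16 and Krt17 are induced in activated or wounded keratinocytes, and others belong to the upper skin layers, the mucosa or the hair follicle. Fibroblasts, neural stem cells and pluripotent cells carry mainly other intermediate filaments such as vimentin and nestin.

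Some keratin genes are close copies of each other, which bears on their read counts, and others are not. The exon of 126 bases that is exon 5 in type I and exon 6 in type II genes shows this, and it is printed for the members on which the results turn. The sequences run 5′ to 3′ on the coding strand and come from the transcripts of GENCODE M21 (GRCm38, the same assembly as mm10). Capitals mark bases that differ from Krt14. On chromosome 11, minus strand, the exons lie at chr11:100204424-100204549 in Krt14, chr11:100257743-100257868 in Krt17, chr11:100264929-100265054 in Krt42 and chr11:100247102-100247227 in Krt16.
Krt14: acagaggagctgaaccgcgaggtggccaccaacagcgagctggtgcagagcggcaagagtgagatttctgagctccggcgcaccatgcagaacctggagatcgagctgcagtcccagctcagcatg
Krt17: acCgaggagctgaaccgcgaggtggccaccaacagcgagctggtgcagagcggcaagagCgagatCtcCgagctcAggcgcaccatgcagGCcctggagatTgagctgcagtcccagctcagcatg
Krt42: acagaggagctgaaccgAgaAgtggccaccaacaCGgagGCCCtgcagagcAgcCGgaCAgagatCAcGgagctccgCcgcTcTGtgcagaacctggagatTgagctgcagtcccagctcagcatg
Krt16: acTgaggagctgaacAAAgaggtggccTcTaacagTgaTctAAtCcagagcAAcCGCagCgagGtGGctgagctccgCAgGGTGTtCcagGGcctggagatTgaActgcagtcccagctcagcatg

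Krt17 differed from Krt14 at 8 of the 126 bases (93.7% identity, with an identical run of 56 bases). Krt42 differed from Krt14 at 21 bases (83.3%) and Krt16 at 32 bases (74.6%). The type II members follow with capitals for bases that differ from Krt5. On chromosome 15, minus strand, they lie at chr15:101709753-101709878 in Krt5, chr15:101691646-101691771 in Krt6a, chr15:101677467-101677592 in Krt6b and chr15:101888157-101888282 in Krt76.
Krt5: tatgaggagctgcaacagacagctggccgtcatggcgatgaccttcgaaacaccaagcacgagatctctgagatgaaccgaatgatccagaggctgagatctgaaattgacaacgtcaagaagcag
Krt6a: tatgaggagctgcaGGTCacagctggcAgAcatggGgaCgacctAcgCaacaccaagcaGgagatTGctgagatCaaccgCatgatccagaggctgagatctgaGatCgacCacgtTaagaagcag
Krt6b: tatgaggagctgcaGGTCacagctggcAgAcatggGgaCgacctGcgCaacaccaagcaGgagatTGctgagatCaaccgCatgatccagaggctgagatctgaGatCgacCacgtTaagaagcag
Krt76: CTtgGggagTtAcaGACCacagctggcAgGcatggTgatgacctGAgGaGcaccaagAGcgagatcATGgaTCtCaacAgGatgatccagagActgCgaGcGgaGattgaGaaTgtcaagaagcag

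Krt6a and Krt6b differed from each other at 1 base (99.2% identity), and each differed from Krt5 at 19 bases (84.9%). Krt76 differed from Krt5 at 33 bases (73.8%). Krt9, which lies beside Krt14, shared 57.1% of this exon with it, and the nearby Krt71 and Krt72 shared 73%. Reads of Krt6a and Krt6b, and to a lesser degree of Krt14 and Krt17, may thus have been split between the copies, and the values of single copies are uncertain to that extent.

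The deposited values are reads per kilobase and megaread (RPKM) for each exon. A gene's level is the mean over its exons weighted by their length. The values stepped in whole reads, which gave library depths from 19 megareads in Tomato-positive OSKM NSC to 58 megareads in iPSC. Markers were checked for 2 kinds of label: 8 fibroblast genes summed to 26921 RPKM in MEF, and 7 neural stem cell genes summed to 5528 to 10856 RPKM in the NSC libraries and at most 62.4 elsewhere. The fibroblast sum was 3958 RPKM in ESC, which grew on feeders, 67.2 in iPSC, 119 on day 6, 1911 in Tomato-positive OSKM NSC, 129 in Tomato-negative OSKM NSC and 8.49 in brain NSC. Keratins reached 2 RPKM in 28 members on day 6, 25 in Tomato-positive OSKM NSC, 11 in MEF, 10 in ESC, 8 in iPSC, 4 in Tomato-negative OSKM NSC and 1 in brain NSC. Over all 29686 genes the number at 2 RPKM ranged from 13666 on day 6 to 15083 in ESC. Over the 7 libraries 22 members reached 10 RPKM somewhere, 8 peaked from 2 to under 10 RPKM, and 23 stayed under 2 RPKM. Of the 30 members that reached 2 RPKM, 17 had their highest value on day 6, 12 in Tomato-positive OSKM NSC and 1, Krt7, in MEF. 

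**Figure D1:**
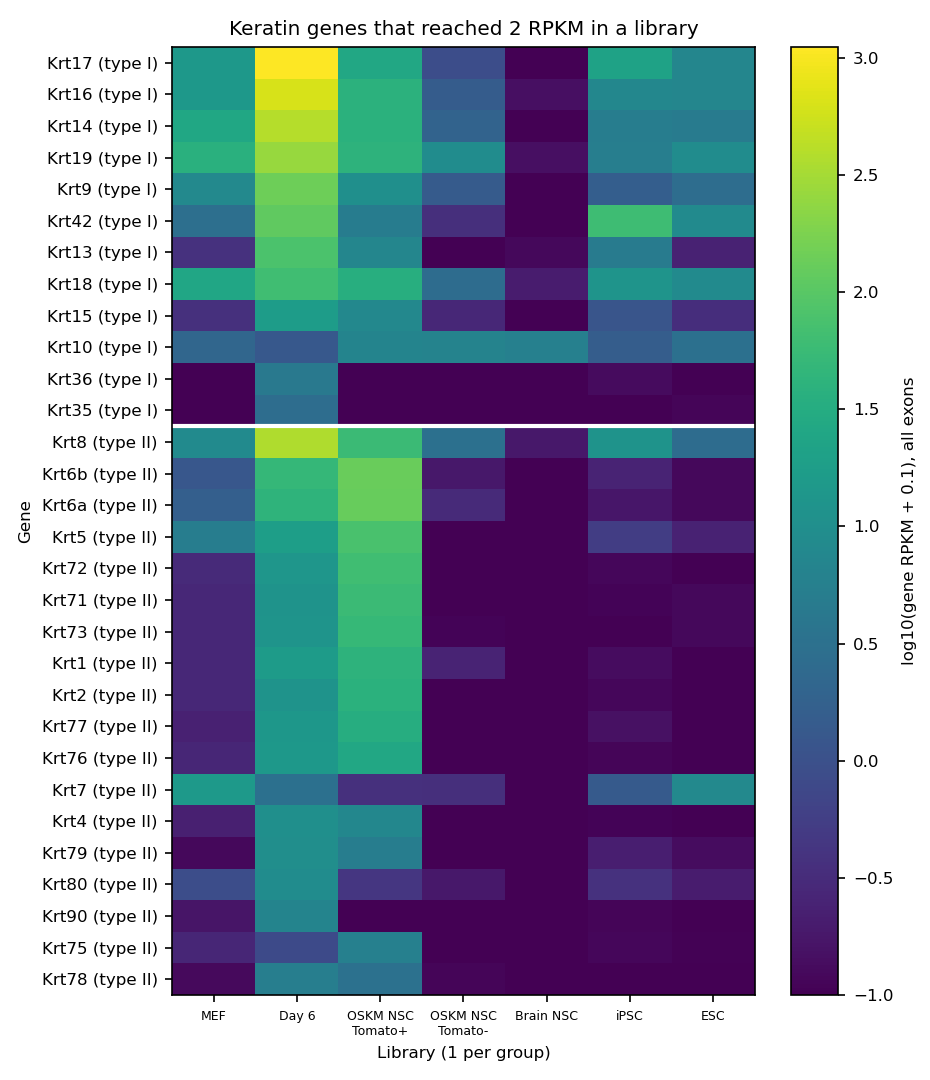
Level of each keratin gene that reached 2 RPKM in a library (rows, type I above the white line and type II below it) in the 7 libraries (columns, 1 per group), as log10 of gene RPKM plus 0.1. Bright cells gather in the day 6 and Tomato-positive OSKM NSC columns, and brain NSC is dark except for Krt10.

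How the reads lay within the genes differed between members, and it was examined after the exon values had been seen. Reads that sample a transcript evenly give long exons more reads than short ones. In several keratin genes every exon held the same number of reads whatever its length. Krt9, a keratin of the upper layers of palm and sole skin, had 2072 reads in each of its 8 exons on day 6, although these exons span 83 to 884 bases. The same gene had 113 reads in each exon in MEF and 64 in each exon in Tomato-positive OSKM NSC.

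On chromosome 15 these equal counts ran on from gene to gene. In Tomato-positive OSKM NSC 26 consecutive exons of Krt71, the pseudogene Krt74 and Krt72 held 262 reads each, over 51.1 kb. Krt71 and Krt72 are keratins of the inner root sheath of the hair. On day 6 the 10 exons of a run through Krt71 and Krt74 held 134 reads each, and so did 15 exons of Krt74 and Krt72 and 8 exons of Krt73. Krt77 and Krt76 had 207 reads in each of 11 exons on day 6. The level passed from one plateau to the next at single exons: in Krt76, a keratin of oral epithelia, exons 1 to 4 held 33 to 34 reads and exons 5 to 9 held 205 to 211 reads in Tomato-positive OSKM NSC. In Krt42, a type I keratin known from the nail, exons 5 to 8 held 1683 to 1757 reads on day 6, exon 4 held 585 and exon 1 held 2.

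Genes with at least 6 exons and at least 20 reads in the highest exon were compared over the whole table. On day 6 the highest exon was within 1.1 times of the lowest in 9 of 30 such keratins (30%) and in 70 of 10782 genes (0.649%). In Tomato-positive OSKM NSC it was so in 7 of 25 keratins (28%) and in 54 of 10671 genes (0.506%). Across all keratins measured in this way the reads that each exon shared with the lowest exon made up a median of 70.3% of reads on day 6, against 9.94% over all genes. How reads that span introns were counted is not given in the sources used here, and its part in the levels was not tested. Each count of keratins called below is therefore also given on a second measure, chosen after the data were seen: the reads of the longest exon above those of the lowest exon of the gene, in RPKM. It is 0 by construction where the longest exon is itself the lowest. Where an exon of a gene holds 0 reads, the measure removes nothing from the longest exon.

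**Figure D2:**
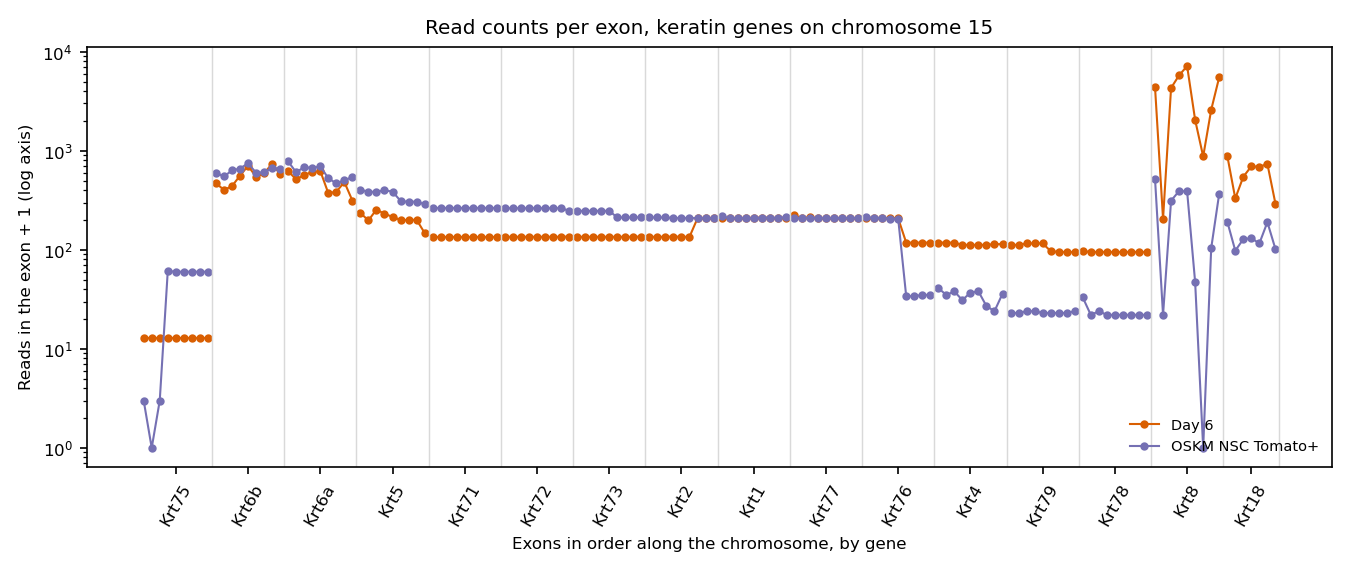
Reads in each exon plus 1 (log axis) for keratin genes on chromosome 15 in chromosomal order, with day 6 in orange and Tomato-positive OSKM NSC in violet and grey lines between genes. From Krt71 to Krt78 the points form flat plateaus across genes, such as 262 reads from Krt71 to Krt72 in Tomato-positive OSKM NSC, while the exons of Krt8 and Krt18 differ from each other.

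**Figure D3:**
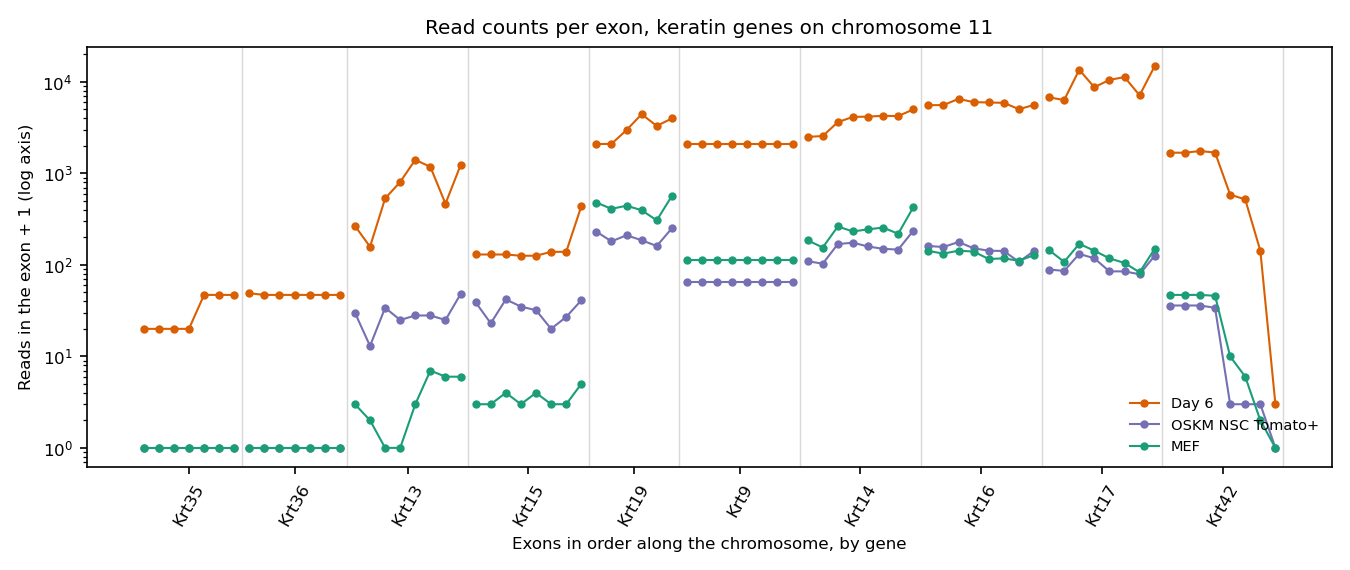
Reads in each exon plus 1 (log axis) for keratin genes on chromosome 11 in chromosomal order, with day 6 in orange, Tomato-positive OSKM NSC in violet and MEF in green. Krt9 is flat in all 3 libraries, at 2072 reads on day 6, and Krt42 steps down towards its exon 1.

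Among the keratins of simple epithelia, Krt8 measured 365 RPKM on day 6, 8.52 in MEF, 11.7 in iPSC, 2.62 in ESC, 57.8 in Tomato-positive OSKM NSC, 3.05 in Tomato-negative OSKM NSC and 0.0822 in brain NSC. Its partner Krt18 measured 63.1 on day 6, 24.5 in MEF, 12.1 in iPSC, 8.42 in ESC, 34.8 in Tomato-positive OSKM NSC, 2.62 in Tomato-negative OSKM NSC and 0.103 in brain NSC. Both were highest on day 6 and lowest in brain NSC, and day 6 exceeded MEF far more in Krt8 than in Krt18. In their longest exons the day 6 to MEF ratio of depth-scaled reads was 49.7 for Krt8 (95% exact interval 41.1 to 60.6) and 2.95 for Krt18 (2.59 to 3.38), where the interval covers counting error only. Neither gene held equal counts in all exons: on day 6 the exons of Krt8 ranged from 204 to 7155 reads and those of Krt18 from 292 to 891. Reads at the level of the lowest exon made up 5.59% in Krt8 and 49% in Krt18 on day 6. The median over all genes was 9.94%. In Tomato-positive OSKM NSC they made up 0% in Krt8 and 71.4% in Krt18. There the lowest exon of Krt8 held 0 reads and its highest 519, and a single empty exon is enough to give 0%. The ranges and shares of Krt8 therefore do not show whether its other exons held a common count.

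Krt19, a small type I keratin of simple epithelia, measured 261 RPKM on day 6, 36.6 in MEF, 5.33 in iPSC, 9.33 in ESC, 40.6 in Tomato-positive OSKM NSC, 9.17 in Tomato-negative OSKM NSC and 0.047 in brain NSC. It was the highest keratin of MEF and of Tomato-negative OSKM NSC. Krt7, a keratin of glandular and other simple epithelia, measured 3.03 on day 6, 15.4 in MEF, 1.31 in iPSC, 8.02 in ESC, 0.264 in Tomato-positive OSKM NSC, 0.25 in Tomato-negative OSKM NSC and 0 in brain NSC. Krt7 was the member with its highest value in MEF, and its second highest was in ESC. The MEF library also held markers of mesothelium, the keratin-bearing lining of body cavities: Upk1b 37.7, Upk3b 37.5 and Wt1 19.2 RPKM, against 1.56, 1.35 and 0.033 on day 6. Of 5 genes of that list tested 4 were lower on day 6, and 1, Msln, was higher, at 76.2 RPKM against 18 in MEF. Over all genes tested 16.1% were lower and 8.23% higher. The part of the mesothelium markers in the MEF keratin values was not tested.

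Basal keratins split between the 2 high libraries. Krt14 measured 391 RPKM on day 6, 25.8 in MEF, 5.01 in iPSC, 4.75 in ESC, 38.5 in Tomato-positive OSKM NSC, 1.85 in Tomato-negative OSKM NSC and 0 in brain NSC. Krt5, its type II partner, measured 18.5 on day 6, 5.11 in MEF, 0.441 in iPSC, 0.144 in ESC, 75.8 in Tomato-positive OSKM NSC, 0 in Tomato-negative OSKM NSC and 0 in brain NSC. Krt14 was thus highest on day 6 and Krt5 in Tomato-positive OSKM NSC. Krt15, another basal type I keratin that is also found in the hair bulge, measured 17.3 on day 6, 0.261 in MEF, 1.09 in iPSC, 0.244 in ESC, 7.77 in Tomato-positive OSKM NSC, 0.182 in Tomato-negative OSKM NSC and 0 in brain NSC. On the reads of the longest exon the day 6 to MEF ratio was 11.5 for Krt14 (10.4 to 12.8) and 2.66 for Krt5 (2.07 to 3.45). Above the lowest exon the longest exon of Krt14 kept 85.3 RPKM on day 6 and 9.47 in MEF. That of Krt5 kept 2.9 and 2.25 RPKM, so its difference was small on this measure.

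The keratins of activated and wounded skin included the highest values of all members. Krt17 measured 1112 RPKM on day 6, 14.5 in MEF, 21.2 in iPSC, 7.16 in ESC, 26.9 in Tomato-positive OSKM NSC, 0.798 in Tomato-negative OSKM NSC and 0 in brain NSC. Krt16 measured 642 on day 6, 14.5 in MEF, 7.48 in iPSC, 7 in ESC, 39.5 in Tomato-positive OSKM NSC, 1.4 in Tomato-negative OSKM NSC and 0.0473 in brain NSC. Day 6 stood above every other library in both genes. On the longest exon alone, Krt17 had 14908 reads on day 6 and 149 in MEF, a depth-scaled ratio of 97.9 (83.3 to 116). Krt16 held 5038 to 6531 reads in each exon on day 6, so 87.2% of its reads were at the level of its lowest exon, and its longest exon above that level gave 23.1 RPKM on day 6 and 0.711 in MEF.

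The type II keratins of this group were higher in Tomato-positive OSKM NSC than on day 6. Krt6a measured 43.2 RPKM on day 6, 1.56 in MEF, 0.0764 in iPSC, 0.0216 in ESC, 127 in Tomato-positive OSKM NSC, 0.2 in Tomato-negative OSKM NSC and 0 in brain NSC. Krt6b measured 48.9 on day 6, 1.15 in MEF, 0.155 in iPSC, 0.0217 in ESC, 134 in Tomato-positive OSKM NSC, 0.0851 in Tomato-negative OSKM NSC and 0 in brain NSC. These are the copies whose exon shown above differs by 1 base, and their levels lay close to each other in both high libraries. The longest exon of Krt6a held 778 reads in Tomato-positive OSKM NSC, 6 in Tomato-negative OSKM NSC, 620 on day 6 and 31 in MEF. Above the lowest exon the longest exon of Krt6a kept 21.1 RPKM in Tomato-positive OSKM NSC, and that of Krt6b kept 3.32.

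Among keratins of upper skin layers, mucosa and nail, several reached high gene levels on day 6. Krt9 measured 140 RPKM on day 6, 7.79 in MEF, 1.51 in iPSC, 2.72 in ESC, 10.4 in Tomato-positive OSKM NSC, 1.33 in Tomato-negative OSKM NSC and 0 in brain NSC. Since all its exons held equal counts, nothing was left above the lowest exon in its longest exon in any library. Krt42 measured 114 on day 6, 2.85 in MEF, 61.8 in iPSC, 8.59 in ESC, 4.92 in Tomato-positive OSKM NSC, 0.247 in Tomato-negative OSKM NSC and 0 in brain NSC. Its longest exon is exon 1, which is also the lowest on day 6, so that measure gives 0 RPKM on day 6 and 9.37 in iPSC.

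Krt13 and Krt4, partners in the upper layers of mucosal epithelia, behaved differently from each other. Krt13 measured 79.4 RPKM on day 6, 0.282 in MEF, 4.66 in iPSC, 0.147 in ESC, 7.1 in Tomato-positive OSKM NSC, 0 in Tomato-negative OSKM NSC and 0.0224 in brain NSC. Its longest exon held 1229 reads on day 6 and 5 in MEF, and above the lowest exon it kept 43 RPKM on day 6. Krt4 measured 10.4 on day 6, 0.125 in MEF, 0.00808 in iPSC, 0 in ESC, 7.35 in Tomato-positive OSKM NSC, 0 in Tomato-negative OSKM NSC and 0 in brain NSC. Above its lowest exon the longest exon of Krt4 kept 0.198 RPKM on day 6.

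The remaining high members formed the row of type II genes from Krt71 to Krt76, and all 7 were highest in Tomato-positive OSKM NSC. Krt72 measured 63.1 RPKM there, 13.4 on day 6 and 0.205 in MEF, with at most 0.0177 elsewhere. Krt71 measured 56.8 there, 12 on day 6 and 0.183 in MEF, with at most 0.0223 elsewhere. Krt73, also of the inner root sheath, measured 50.4 there, 12.1 on day 6 and 0.185 in MEF, with at most 0.0225 elsewhere. These are the hair keratins that share the plateau counts described above. Krt1, the suprabasal partner of Krt10, measured 40.5 in Tomato-positive OSKM NSC, 16.6 on day 6, 0.181 in MEF and 0.155 in Tomato-negative OSKM NSC, with at most 0.0351 elsewhere. Krt2, of the upper spinous layer, measured 37.9, 11.9 on day 6 and 0.179 in MEF, with at most 0.0198 elsewhere. Krt77, of sweat ducts, measured 33.6, 14 on day 6 and 0.136 in MEF, with at most 0.053 elsewhere. Krt76 measured 26.7, 14.1 on day 6 and 0.173 in MEF, with at most 0.0149 elsewhere. In the 7 genes the longest exon above the lowest kept 0 to 2.44 RPKM in Tomato-positive OSKM NSC, except 12 in Krt76, whose counts step within the gene.

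Of the 8 members that peaked from 2 to under 10 RPKM, Krt79 (9.8), Krt80 (9.25), Krt90 (6.48), Krt78 (5.36), and the hair shaft keratins Krt36 (4.22) and Krt35 (2.7) were highest on day 6. Krt75, of the companion layer of the hair follicle, reached 5.79 RPKM in Tomato-positive OSKM NSC. Krt10, the suprabasal type I keratin, was the 1 member at 2 RPKM in brain NSC, with 5.77 there, 6.3 in Tomato-negative and 6.69 in Tomato-positive OSKM NSC and 1.18 on day 6. The 23 members under 2 RPKM had highest values from 0.0111 RPKM up to less than 2 RPKM and included 13 of the 15 hair shaft keratins.

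Day 6 was then set against MEF to see which keratins differ between the starting cells and the sorted intermediates. Genes at 2 RPKM or more in a compared library were tested, and a gene was counted where log2 of (RPKM + 1) differed by at least 2, a 4-fold change, in every pair compared. Of 29 keratins tested, 24 were higher on day 6 and 1, Krt7, was lower, while over all genes tested 8.23% were higher and 16.1% lower. The median log2 ratio was 3.47 over the keratins and -0.13 over all genes. With a pseudocount of 4 RPKM 15 keratins were higher, and the call of Krt7 was lost there, under both other scalings and on exons that do not overlap. On the longest exon above the lowest exon, 10 of 15 keratins tested were higher and 0 were lower, against 7.65% and 17.9% of all genes. The 10 were Krt6a, Krt8, Krt13, Krt14, Krt15, Krt16, Krt17, Krt19, Krt80 and Krt90, and all 10 had passed over all exons too.

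Against the pluripotent lines the day 6 cells held higher keratins in 25 of 29 members tested, with none lower, when both iPSC and ESC had to be passed. Over all genes 3.47% were higher and 6.7% lower. On the longest exon above the lowest exon 11 of 16 were higher and 0 lower, against 3.4% and 7.29% of genes. Krt18 passed here and not against MEF on either measure. Against the 3 NSC libraries together 11 of 30 members were higher on day 6 and 0 lower, where 4.84% and 6.74% of all genes were. On the other measure 9 of 16 were higher and 0 lower, against 5.06% and 7.29%. Krt5, Krt6a and Krt6b did not pass, since their values in Tomato-positive OSKM NSC exceeded those of day 6.

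Tomato-positive and Tomato-negative OSKM NSC, which share strain and transgenes according to the labels, differed in nearly all keratins tested. Of 25 members 24 were higher in the Tomato-positive library and 0 were lower, while 2.77% of all genes were higher and 0.881% lower. The median log2 ratio was 3.86 over the keratins and 0.19 over all genes, and with a pseudocount of 4 RPKM 15 keratins were higher. The longest exon above the lowest exon gave 10 of 14 higher and 0 lower, against 2.17% and 0.798%. These were Krt5, Krt6a, Krt6b, Krt8, Krt13, Krt14, Krt16, Krt17, Krt18 and Krt76. In Krt76 the measure does not remove the plateau counts, which step from 33 to 211 reads within the gene. The Tomato-positive library is the shallowest, with 19 megareads against 42. Of 8 fibroblast markers tested 7 were also higher in it, and their part in the keratin values was not tested.

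The NSC libraries lay on both sides of MEF. Krt14 was above brain NSC in MEF by a log2 ratio of 4.75 and Krt19 by 5.17, while Krt6b and Krt72 had log2 ratios of MEF over Tomato-positive OSKM NSC of -5.97 and -5.73. A call needs the same direction against all 3 NSC libraries. Of 26 members tested 1, Krt7, was higher in MEF than in every NSC library and 0 were lower, against 6.86% and 2.65% of all genes, and on the other measure 0 of 15 were called in either direction, against 6.49% and 2.23%. Between iPSC and ESC 2 of 11, Krt13 and Krt42, were higher in iPSC and 0 lower, against 1.29% and 4.39% of all genes. On the other measure 0 of 7 were called, against 2.41% and 3.65%. The iPSC count rests on 2 genes. The comparisons with day 6 share the day 6 library, and those with NSC share the NSC libraries.

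**Figure D4:**
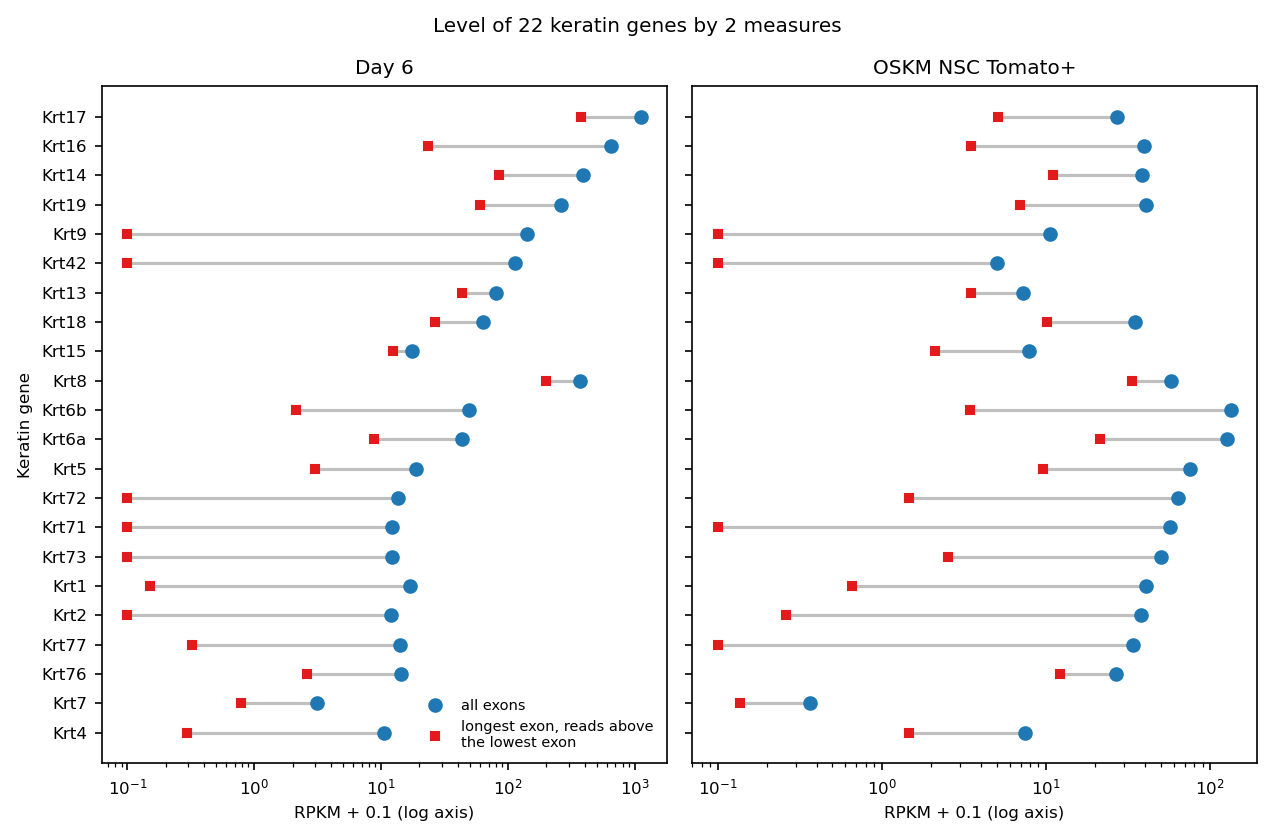
Level of the 22 keratin genes that reached 10 RPKM, on day 6 (left) and in Tomato-positive OSKM NSC (right), as gene RPKM plus 0.1 over all exons (blue circles) and as reads of the longest exon above the lowest exon (red squares), on log axes. Krt9 falls from 140 RPKM to 0 on day 6 and Krt71 from 56.8 to 0 in Tomato-positive OSKM NSC. Krt8 on day 6 measures 365 RPKM over all exons and 198 by the red squares. All reads of its longest exon give 206 RPKM.

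Since filaments need both types, the summed levels of the types were set beside each other. On day 6 the type II genes summed to 615 RPKM and the type I genes to 2833, a ratio of 0.217. In Tomato-positive OSKM NSC the sums were 726 and 219, a ratio of 3.32. The ratio was 0.266 in MEF, 0.224 in ESC, 0.151 in Tomato-negative OSKM NSC, 0.116 in iPSC and 0.0139 in brain NSC. Over all exons, and on the longest exon above the lowest exon, the ratio exceeded 1 in Tomato-positive OSKM NSC and in no other library, with 1.91 there and 0.367 on day 6 on the latter measure. With the highest exon of each gene it also exceeded 1 in MEF, at 1.8, and in ESC, at 2.72. Within the simple pair, Krt8 divided by Krt18 was 0.311 in ESC, 0.347 in MEF, 0.797 in brain NSC, 0.966 in iPSC, 1.17 in Tomato-negative OSKM NSC, 1.66 in Tomato-positive OSKM NSC and 5.78 on day 6. Krt5 divided by Krt14 was 0.0474 on day 6 and 1.97 in Tomato-positive OSKM NSC. These ratios of pairs are over all exons. On the longest exon above the lowest exon Krt5 gave 9.51 and Krt14 11 RPKM in Tomato-positive OSKM NSC. Krt5 thus exceeded Krt14 there over all exons and not on that measure.

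**Figure D5:**
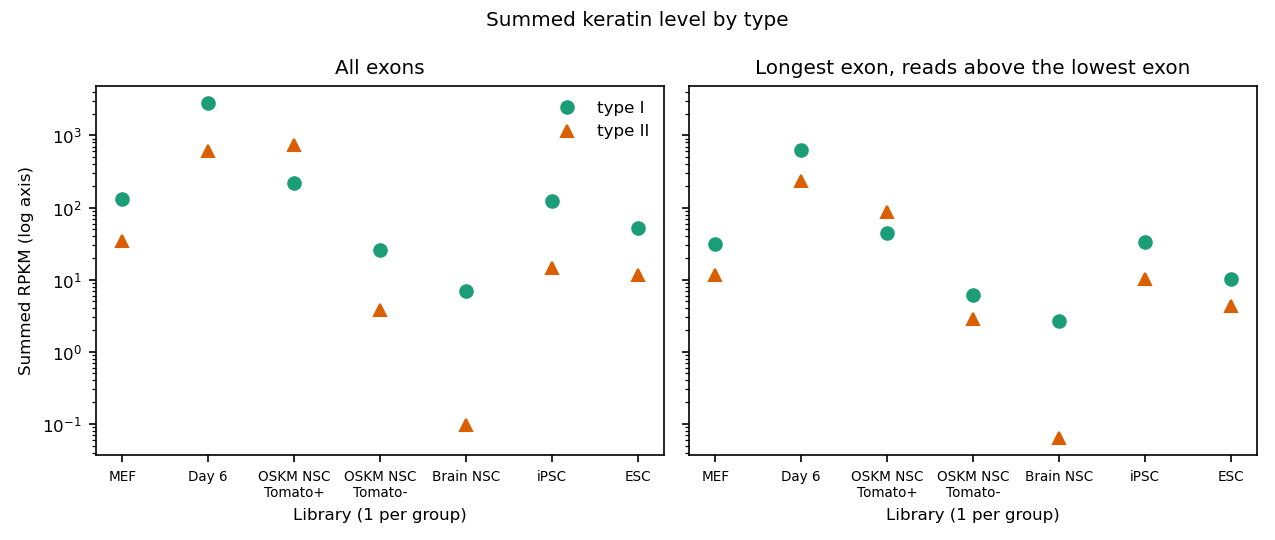
Summed RPKM of type I (green circles) and type II keratins (orange triangles) in the 7 libraries on a log axis, over all exons (left) and on the reads of the longest exon above the lowest exon (right). The type II sum lies above the type I sum in Tomato-positive OSKM NSC in both panels and below it in the other 6 libraries.

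Promoter windows, 250 bases before to 50 bases after the annotated start, were found in RefSeq (GRCm38.p6) for 14 of the 22 members that reached 10 RPKM. The motif TATAAA, on either strand, was in 6 of the 14 and in 13.6% of 32851 windows. The AP-2 motif, GCC and GGC 3 bases apart, was in 5 of the 14 and in 16.6% of windows. GGGCGG was in 1, Krt7, and in 35.7% of windows. TGANTCA, the AP-1 motif, was in 1, Krt13, and in 7.81%. AACCGGT, read by Grhl factors, was in 0 and in 1.02%, and ATGCAAA, the octamer read by Oct4, was in 0 and in 4.63%. A match only says that these letters stand in the window.

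Genes known to act upstream of keratins were then set beside them, on all exons only, as were the lists that follow. Of 14 listed factors 11 were tested, 9 were higher on day 6 than in MEF and 1, Gata3, was lower, where 8.23% and 16.1% of all genes were, with a median log2 ratio of 3.37. Ehf, an epithelial Ets factor, measured 34.8 RPKM on day 6 and 0.0102 in MEF. Elf5, of the same family, measured 20 and 0, Grhl2 17.8 and 0.0319, and Grhl1 16.7 and 0.381. In Tomato-positive OSKM NSC, where keratins were also high, Ehf measured 0.272, Elf5 0.242, Grhl2 0.345 and Grhl1 0.779 RPKM. There 1 of the 14 factors was tested against Tomato-negative OSKM NSC and none was called, where 2.77% of all genes were higher and 0.881% lower. The 14 factors summed to 196 RPKM on day 6, 341 in iPSC and 252 in ESC. Against both pluripotent lines 5 of 11 tested were higher on day 6, where 3.47% of all genes were. Klf5 and Elf3 were lower, where 6.7% of all genes were. Trp63, also listed, measured 0.164 on day 6, 0.364 in MEF and 0.0963 in Tomato-positive OSKM NSC.

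Of the proteins that fasten keratin filaments to junctions, 13 were tested, 7 were higher on day 6 than in MEF and 0 lower (8.23% and 16.1% over all genes), with a median log2 ratio of 2.16. Pkp1, a desmosomal plakophilin, measured 94.6 RPKM on day 6, 0.783 in MEF and 1.26 in Tomato-positive OSKM NSC. Itgb4, the hemidesmosomal integrin, measured 174, 3.95 and 1.26, desmoplakin (Dsp) 71.7, 2.03 and 2.15, and envoplakin (Evpl) 31.9, 0.634 and 0.404. These 4 had the largest day 6 to MEF ratios, and others of the list were not low in Tomato-positive OSKM NSC: Itga6, named after its values were seen, measured 84 there and 81.9 on day 6. Between the OSKM NSC libraries 7 were tested and 0 were called, where 2.77% of all genes were higher in Tomato-positive and 0.881% lower. Of 12 listed keratinocyte differentiation genes 6 were tested, 4 were higher on day 6 than in MEF and 0 lower. Sfn measured 292 on day 6 and 2.38 in MEF, Klk10 70.4 and 0.227, Perp 544 and 11, and Tgm1 31.6 and 5.58. Sprr1a, at 7.36 on day 6 and 1.85 in MEF, and Dsc3, at 4.38 and 0.466, were tested and not called. The genes of the list that were not tested stayed under 2 RPKM in both libraries, among them Ivl at 0.0455 and 0.116 and Csta1 at 0.0407 and 0.943. Perp and Sfn were also present in iPSC, at 86.1 and 30.6, and in ESC, at 62.5 and 20.2.

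The same shares of all genes, 8.23% higher and 16.1% lower, apply to the day 6 counts of the keratinocyte list and of the lists below. Of 11 intermediate filament genes outside the keratins 2 were higher on day 6 than in MEF and 4 lower. Vimentin (Vim) measured 3595 RPKM in MEF and 86.3 on day 6, and desmin (Des) 117 and 3.76. The neurofilament genes Nefl and Nefm measured 97.3 and 24.5 on day 6 and 2.3 and 2.03 in MEF. Of 10 simple epithelium genes tested 9 were higher on day 6, with Epcam at 559 and 3.94, while in Tomato-positive OSKM NSC Epcam measured 4.08. All 8 fibroblast markers tested were lower on day 6 than in MEF. Of 6 listed trophectoderm genes 4 were tested. Elf5, Tfap2c and Tead4 were higher on day 6 and Gata3 was lower. Elf5, Tfap2c and Gata3 are also in the list of keratin factors above, so the same calls count in both. Cdx2 and Eomes measured 0.0673 and 0.511 RPKM on day 6 and were not tested. Tfap2c measured 17.3 on day 6, 29.2 in iPSC and 47.9 in ESC.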

How the data were processed

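RNA-seq of 7 libraries, 1 per group, was used. The authors deposited 1 RPKM value for each exon and library. CASAVA 1.8.2, Bowtie, TopHat2 2.0.10, bedtools and mm10 are named in the submitters' processing notes, without roles, and strand use is not given in the sources used here. Of 279252 exons 270168 were matched by exon ID to GENCODE M21, giving 29686 genes. Whole reads were recovered for 96.3% to 96.5% of values, within 0.01 read plus 1e-05 of the value. Log2 ratios used a pseudocount of 1 RPKM and a floor of 2 RPKM. Intervals of read ratios are 95% exact and cover counting error only. A listed 0 allows up to 3 reads. Python 3.11.15, pandas 2.3.3, numpy 2.4.6 and SciPy 1.17.1 were used, and the rules were tested on simulated data. Without replicates no p-value is given. Members and lists were chosen with earlier results of these data known. Named are the 6 markers Krt5, Krt6a, Krt8, Krt14, Krt18 and Krt19, members at 10 RPKM with all libraries, those from 2 RPKM with their highest library, and at most 4 genes of each other list by size of the day 6 to MEF ratio. Gata3, Msln, Itga6, Sprr1a, Dsc3, Ivl, Csta1, Trp63, Klf5, Elf3, Cdx2 and Eomes were named after their values were seen. The alternatives were 2 scalings, pseudocounts of 0.25 and 4, floors of 0.4 and 8 RPKM, exon choices and type by chromosome.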

Additional observations from a re-analysis of the deposited data

Results flagged for a closer look

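Genes of the keratin clusters that are not members also carried reads, and each value here is from a gene outside the comparisons of the report and stands for more reads than the 3 that a count of 0 allows. The pseudogene Krt74 measured 15.9 RPKM on day 6 and 75.3 in Tomato-positive OSKM NSC, with 262 reads in every exon of the latter. Gm5414 measured 14.9 and 94.3 RPKM in the same libraries. Gm5478 measured 19.3 on day 6, 0.32 in MEF and 78.6 in Tomato-positive OSKM NSC. Gm11597, an unprocessed pseudogene on chromosome 11, measured 827 RPKM on day 6, 21.9 in MEF, 10.2 in iPSC, 9.72 in ESC, 52.6 in Tomato-positive OSKM NSC and 2.4 in Tomato-negative OSKM NSC. Gm12347, a noncoding gene on chromosome 11, measured 8.51 RPKM on day 6, with 46 reads in each of its 4 exons, and shared that count with Krt36.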

How the results depend on the processing

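No paired analysis was possible because each group has 1 library. No replicate can be left out for the same reason. Of the values recomputed, 176 under planned settings and 44 under the settings added after the data were seen kept their call or stayed within the limits, and 27 and 31 moved. With a pseudocount of 4 RPKM 15 keratins were higher on day 6 than in MEF, 15 were higher in Tomato-positive than Tomato-negative OSKM NSC and 1 was higher in iPSC than ESC. With a pseudocount of 0.25 RPKM 1 keratin was lower on day 6 than in the 3 NSC libraries and 1 lower in iPSC than ESC. Krt7 was no longer lower on day 6 than in MEF (0 keratins) with totals scaled to be equal, median-of-ratios scaling, a pseudocount of 4, exons that do not overlap, and each of the 3 measures added after the data were seen. With a floor of 8 RPKM 1 keratin was higher in iPSC than ESC, and with the highest exon 1 was lower. On all reads above the lowest exon 13 keratins were higher on day 6 than in MEF, 14 than in iPSC and ESC, and 14 in Tomato-positive than in Tomato-negative OSKM NSC. On the longest exon alone 0 were higher in MEF than in the NSC libraries and 1 in iPSC than ESC. On the longest exon above the lowest exon the counts were 10, 11, 0, 10 and 0 for day 6 against MEF, day 6 against iPSC and ESC, MEF against NSC, Tomato-positive against Tomato-negative and iPSC against ESC. The cause was not tested, except that fewer keratins reached the floor on the added measures.

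The type II to type I ratio on day 6 was 0.236 with the highest exon, 0.313 with exons that do not overlap, 0.438 with reads above the lowest exon, 0.223 with the longest exon, 0.367 with both and 0.245 by chromosome. In Tomato-positive OSKM NSC it was 6.54, 4.48, 2.36, 2.67, 1.91 and 4.13 in the same order. It stayed above 1 there and under 1 on day 6 in these settings. With the highest exon it was 1.8 in MEF, 2.72 in ESC, 0.334 in Tomato-negative OSKM NSC and 0.234 in iPSC, so MEF and ESC passed from under 1 to above 1. With exons that do not overlap it was 0.123 in iPSC and 0.211 in ESC. In the order MEF, ESC, Tomato-negative OSKM NSC and iPSC, the ratio was 0.674, 0.502, 0.402 and 0.212 with reads above the lowest exon, 0.203, 0.204, 0.228 and 0.185 with the longest exon, 0.361, 0.413, 0.459 and 0.309 with both, and 0.561, 0.46, 0.282 and 0.237 by chromosome. With the highest exon the log2 ratio of Krt5 on day 6 against MEF was 3.09. Depth limits the low members, since a count of 0 allows up to 3 reads.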
